A study of Mus musculus and Homo sapiens with 12 samples.

Results

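The HOX genes of the 4 HOX clusters were taken as every protein-coding gene whose symbol consists of HOX, a cluster letter from A to D and a number, which gave 39 of 20033 genes in the human annotation and 39 of 21883 in the mouse annotation. In each species 11 of them lay in the A cluster, 10 in B, 9 in C and 9 in D, and 23 were anterior genes (paralog groups 1 to 8) and 16 posterior genes (groups 9 to 13). CUT&Tag, which tags chromatin under an antibody with a transposase, was used to map histone butyrylation (Kbu) and acetylation (Kac) in 12 libraries. In CCD841, a human cell line labelled as normal colon epithelium, H3K18bu and H4K12bu were each profiled in 2 libraries after 1 mM sodium butyrate (NaBu) for 12 to 16 h, and neither untreated CCD841 cells nor acetyl libraries of this line were analysed here. In mice, H3K18ac and H4K12ac were profiled in large intestine under a high fat, high sucrose (HFHS) diet, and H3K18bu and H4K12bu under the same diet with 5% arabinoxylan, a fiber, with 2 libraries per mark. The labels give the HFHS diet for the Kac libraries, whose titles mark them as controls, while the methods of the study describe a control group on a low fat diet, so the diet behind the Kac libraries is uncertain. All the mice were male CETP-ApoB-100 transgenics whose age is not given in the sources used here, and tissue came from 2 animals per diet, so the 4 libraries of a diet came from at most 2 mice. Acyl group and diet differed together in the mouse libraries, so their parts in a difference between Kbu and Kac cannot be told apart. CCD841 is a single line, and nothing in the labels says whether its paired libraries came from separate cultures.

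HOX genes encode homeodomain transcription factors that give cells their position along the head-to-tail axis. The genes of a cluster are transcribed in the same direction and are switched on in their order along the chromosome, and silent stretches are held by Polycomb proteins. In the adult gut they keep a regional pattern, with posterior genes such as HOXA13 and HOXB13 most typical of the hindgut. A bulk library cannot tell fewer cells that carry a mark from less mark per cell.

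Every value below came from lists of peaks that the authors called in each library, and none came from a test, since 2 libraries against 2 cannot give a two-sided exact permutation p below 0.333. A region is a merged stretch of overlapping peaks that holds a peak of each replicate, and a gene was called when a region lay within 1 kb of its start (human) or of either end of the gene (mouse, where the gene table gives no strand). The −log10 p is that of the peak caller, and the pileup is the number of fragments stacked at the summit, solved from the listed fold enrichment and p. The lists do not give the depth, and they hold peaks above a limit of their own: the lowest pileup was 9 in both replicate 1 lists of CCD841 (leaving out 1 H4K12bu peak whose fold and p were solved as 1), 7 in H3K18bu replicate 2 and 5 in H4K12bu replicate 2, against 1 in all 8 mouse lists. A gene without a peak was therefore below the limit of the list, which is not an absence of the mark.

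The labelled epithelial origin was checked on 14 epithelial marker genes. In CCD841, the starts of VIL1 (villin) for H3K18bu and of KRT8 and KRT18 (keratins) for H4K12bu had regions, 1 and 2 of 14, while 5 and 2 of 14 fibroblast and mesenchymal markers did. Of all protein-coding genes, 31.3% had a region at the start for H3K18bu and 14.7% for H4K12bu, so the fibroblast shares (35.7% and 14.3%) and the epithelial share for H4K12bu (14.3%) were near the background and the epithelial share for H3K18bu (7.14%) was below it. EPCAM and CDH1, which define epithelial cells, had no peak at the start in any of the 4 CCD841 libraries, and VIM, a mesenchymal gene, had none either. Of all protein-coding genes, 38.9% had none. With a peak of either replicate, 4 of 14 epithelial markers were called for H3K18bu and 3 for H4K12bu. The fibroblast and mesenchymal counts were then 10 and 5 of 14, against 53.2% and 38.8% of all genes. In the mouse, 7 of 14 epithelial markers were called for H3K18bu, 4 for H4K12bu, 5 for H3K18ac and 2 for H4K12ac, with VIL1's counterpart Vil1 among them for every mark, against 6.84%, 16.4%, 24.4% and 27.8% of all genes. The part of other cell types in the HOX values was not tested.

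Promoters that carry the main contrasts are shown first, each 300 bases long with CG dinucleotides in capitals and read 5′ to 3′ on the strand of the gene. HOXC4 (chr12:54016681-54016980, plus strand) had the strongest H3K18bu peak at a HOX start, HOXB1 (chr17:48530962-48531261, minus strand) had the strongest H4K12bu peak, and HOXA13 (chr7:27200042-27200341, minus strand) had no peak in any CCD841 library. These 3 are from GRCh38 at the GENCODE starts. Mouse Hoxb4 (chr11:96318017-96318316 of GRCm38.p6, plus strand, from RefSeq) was the gene with peaks in all 8 mouse libraries.
HOXC4: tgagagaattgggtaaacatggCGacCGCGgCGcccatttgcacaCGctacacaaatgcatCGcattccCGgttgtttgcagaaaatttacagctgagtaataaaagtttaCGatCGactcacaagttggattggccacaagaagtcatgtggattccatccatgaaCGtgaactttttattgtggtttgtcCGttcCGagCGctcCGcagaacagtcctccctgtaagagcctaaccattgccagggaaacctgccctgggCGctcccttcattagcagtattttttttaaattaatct
HOXB1: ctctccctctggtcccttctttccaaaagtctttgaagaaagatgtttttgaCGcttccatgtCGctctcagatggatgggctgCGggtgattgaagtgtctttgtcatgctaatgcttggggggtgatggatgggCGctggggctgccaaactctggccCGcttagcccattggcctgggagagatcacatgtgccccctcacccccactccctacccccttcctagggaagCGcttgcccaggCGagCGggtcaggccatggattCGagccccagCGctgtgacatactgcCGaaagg
HOXA13: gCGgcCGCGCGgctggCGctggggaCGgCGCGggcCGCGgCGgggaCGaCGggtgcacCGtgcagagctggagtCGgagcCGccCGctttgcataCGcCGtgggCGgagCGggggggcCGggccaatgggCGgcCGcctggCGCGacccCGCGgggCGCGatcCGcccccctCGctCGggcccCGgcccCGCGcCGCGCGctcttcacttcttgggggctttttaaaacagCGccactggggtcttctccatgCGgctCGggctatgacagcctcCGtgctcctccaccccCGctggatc
Hoxb4: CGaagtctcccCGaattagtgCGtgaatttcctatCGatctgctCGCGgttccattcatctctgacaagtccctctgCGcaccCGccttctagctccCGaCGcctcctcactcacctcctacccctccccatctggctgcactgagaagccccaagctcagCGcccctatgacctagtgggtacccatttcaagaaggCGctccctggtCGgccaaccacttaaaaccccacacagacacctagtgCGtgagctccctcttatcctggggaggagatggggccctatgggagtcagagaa

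The HOXA13 promoter held 44 CG, the HOXC4 promoter 15, the HOXB1 promoter 11 and the Hoxb4 promoter 14. Across the 39 human HOX promoters the median was 15 CG, against 18 over all 20033 human promoters. The 26 HOX genes with no CCD841 peak at the start had a median of 14.5 CG and the 13 with a peak in any library a median of 17, and both ranges overlapped widely (4 to 44 and 9 to 28). The letters TTTATNG, a core bound by CDX and posterior HOX proteins, were searched on both strands and lay in 8 of 39 human HOX promoters (20.5%, HOXC4 included) against 8.94% of all human promoters, and in 8.33% of 24 mouse Hox promoters against 9.58% of 21262. For the CTCF core motif, only a single fixed string of letters was searched. It was in none of the HOX promoters and in 0.0699% of all human and 0.0705% of all mouse promoters. At these shares none was likely to be found in so few HOX promoters, so a lack of CTCF sites cannot be read from this. The mouse promoter table matched 22 of the 39 Hox genes, and the table can list more than 1 promoter for a gene.

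In CCD841 cells, few HOX starts carried a butyryl mark. For H3K18bu, 4 of 39 HOX genes had a region of both replicates at the start (10.3%), HOXB9, HOXC4, HOXC6 and HOXD13, while 31.3% of all protein-coding genes did. For H4K12bu, 0 of 39 did, while 14.7% of all protein-coding genes did. HOX genes were below the share of all genes in each library taken alone, at 17.9% against 40.3% and 15.4% against 45.6% for H3K18bu (replicates 1 and 2), and 2.56% against 27.8% and 12.8% against 27.3% for H4K12bu. Of the 39 genes, 26 had no peak at the start in any of the 4 libraries, where 38.9% of all protein-coding genes had none, and HOXC4 had peaks in 3, the highest number.

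**Figure D1:**
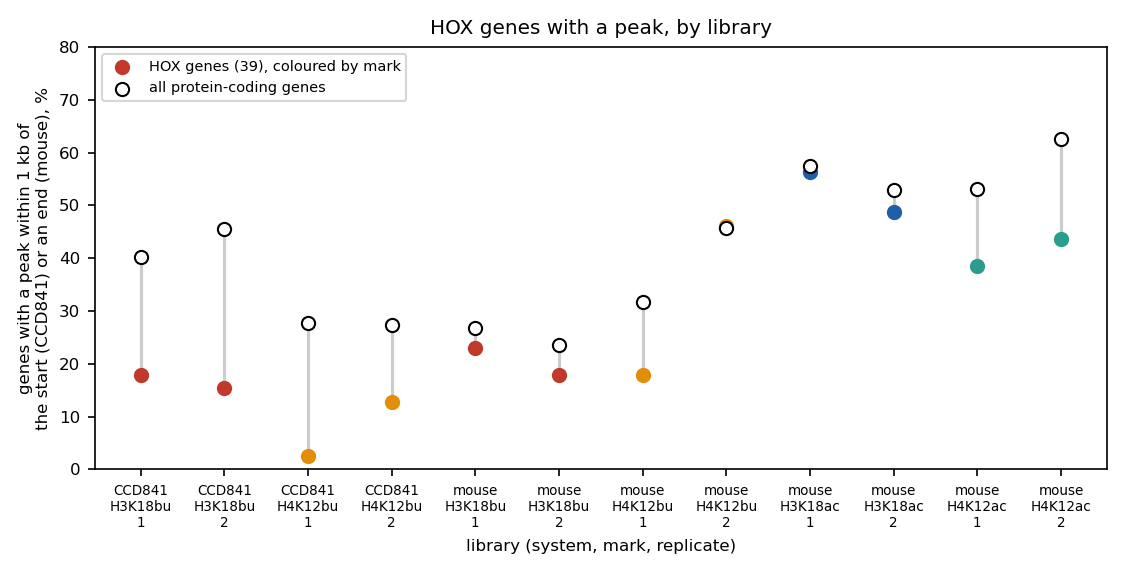
Percent of genes with a peak within 1 kb of the start (CCD841) or of either end (mouse), 1 column per library, with filled points for the 39 HOX genes coloured by mark and open points for all protein-coding genes. The filled points lie well below the open ones in the 4 CCD841 libraries, and close to or below them in 7 of the 8 mouse libraries, H4K12bu replicate 2 being the one where HOX genes (46.2%) lie just above all genes (45.7%).

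HOXC4, an anterior gene of the C cluster, had the strongest start peak. Its −log10 p for H3K18bu was 14.1 in replicate 1 and 13.4 in replicate 2, at a fold over background of 6.27 and 6.52 and a pileup of 23 and 20. The summits lay 1207 and 1023 bp downstream of the start, inside the gene and outside the printed promoter. In H4K12bu the same start had a peak in replicate 2 only, with a pileup of 5.

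HOXC6, the neighbouring anterior gene, had H3K18bu peaks of −log10 p 10.5 and 6.15 with pileups of 18 and 11, with summits 781 and 764 bp downstream of the start of its longest gene model. That region is the same one that lies at the start of MIR196A2, a microRNA gene. HOXB9, a posterior gene, had −log10 p values of 6.51 and 8.86 with pileups of 12 and 13, and HOXD13, the last gene of the D cluster and a regulator of limb ends, had 7.41 and 4.61 with pileups of 12 and 7. The peaks of these 3 genes were weaker than those of HOXC4 in both replicates by −log10 p.

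Of the other group 13 genes, HOXA13 and HOXB13 had no peak at the start in any CCD841 library, and HOXC13 had 1, in H3K18bu replicate 1 (−log10 p 6.87, pileup 11). Peaks in a single replicate of H3K18bu were found at HOXA6, HOXB1 and HOXC13 in replicate 1 and at HOXD9 and HOXD11 in replicate 2. For H4K12bu, replicate 1 had a peak at HOXB1, a hindbrain gene (−log10 p 6.04, pileup 13), and replicate 2 had peaks at 5 genes, HOXA11, HOXC4, HOXC8 and HOXD12 among them, with pileups of 5 or 6. These replicate 2 peaks were at the lower end of that list, and only the one at HOXD12 passed a q of 0.05 (−log10 q 1.86). HOXB1 and HOXC4 were the genes marked at the start by both residues in any replicate.

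Using every annotated transcript start in place of the gene's start raised the H3K18bu count to 7, adding HOXA3, HOXB3 and HOXD3, against 44% of all genes. The H4K12bu count rose to 2 (HOXB3 and HOXC4) against 35.4%. Regions anywhere in a gene or within 1 kb of it were found at 10 HOX genes for H3K18bu and 7 for H4K12bu, while 63.5% and 64.8% of all protein-coding genes held one. The HOX share was below the share of all genes in each of these counts. A longer gene has more room for a region and lengths were not matched, so the counts anywhere in a gene are a description.

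The same order held under other rules for a call. With a window of 3 kb, 7 HOX genes were called for H3K18bu against 39.3% of all genes, and 4 for H4K12bu against 22.4%. With a peak of either replicate taken as enough, H3K18bu reached 9 genes beside 53.2% and H4K12bu 6 beside 38.8%. Requiring a q below 0.05 in both replicates left the 4 H3K18bu genes, beside 31.3%, and 0 for H4K12bu, beside 11%. The q rule could not change the HOX counts, since it removed no H3K18bu gene among all genes and the H4K12bu count was already 0. HOX genes thus stayed below all genes when the call was made wider.

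Most butyryl regions of the CCD841 clusters lay further than 1 kb from the start of a HOX gene, with other transcript starts not counted. No share of all regions near starts is given here, so this is a description. With 20 kb on each side, the 4 clusters held 18 H3K18bu regions, 1 in HOXA, 9 in HOXB, 6 in HOXC and 2 in HOXD, and 15 H4K12bu regions, 1 in HOXA, 8 in HOXB, 6 in HOXC and 0 in HOXD. This came to 2.64 H3K18bu regions per 100 kb against 3.52 over all chromosomes, and 2.20 H4K12bu regions per 100 kb against 2.93. The low values were those of the A and D clusters, at 0.680 and 1.45 per 100 kb for H3K18bu and 0.680 and 0 for H4K12bu, while B and C lay between 3.33 and 3.82 per 100 kb for both marks. By covered length the clusters stood at 1.04% for H3K18bu (all chromosomes 1.71%) and 0.794% for H4K12bu (1.36%).

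For H3K18bu the number of peaks per 100 kb was lower in the clusters only for regions of both replicates. Taken alone, the H3K18bu libraries had 8.93 and 7.76 merged peaks per 100 kb in the clusters (replicates 1 and 2) against 6.84 and 7.42 over all chromosomes, and covered 2.32% against 2.06% and 1.54% against 1.91%. The covered share was thus higher than over all chromosomes in replicate 1 and lower in replicate 2. The HOXA cluster had 16 merged peaks at 10.9 per 100 kb in H3K18bu replicate 1, close to the 10.8 of HOXC, and 7 at 4.76 in replicate 2. Without the margin of 20 kb it had 9.34 per 100 kb in replicate 1 against 11.9 for HOXC. The H4K12bu libraries alone were below all chromosomes, at 4.10 against 6.71 and 7.18 against 9.16 per 100 kb.

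**Figure D2:**
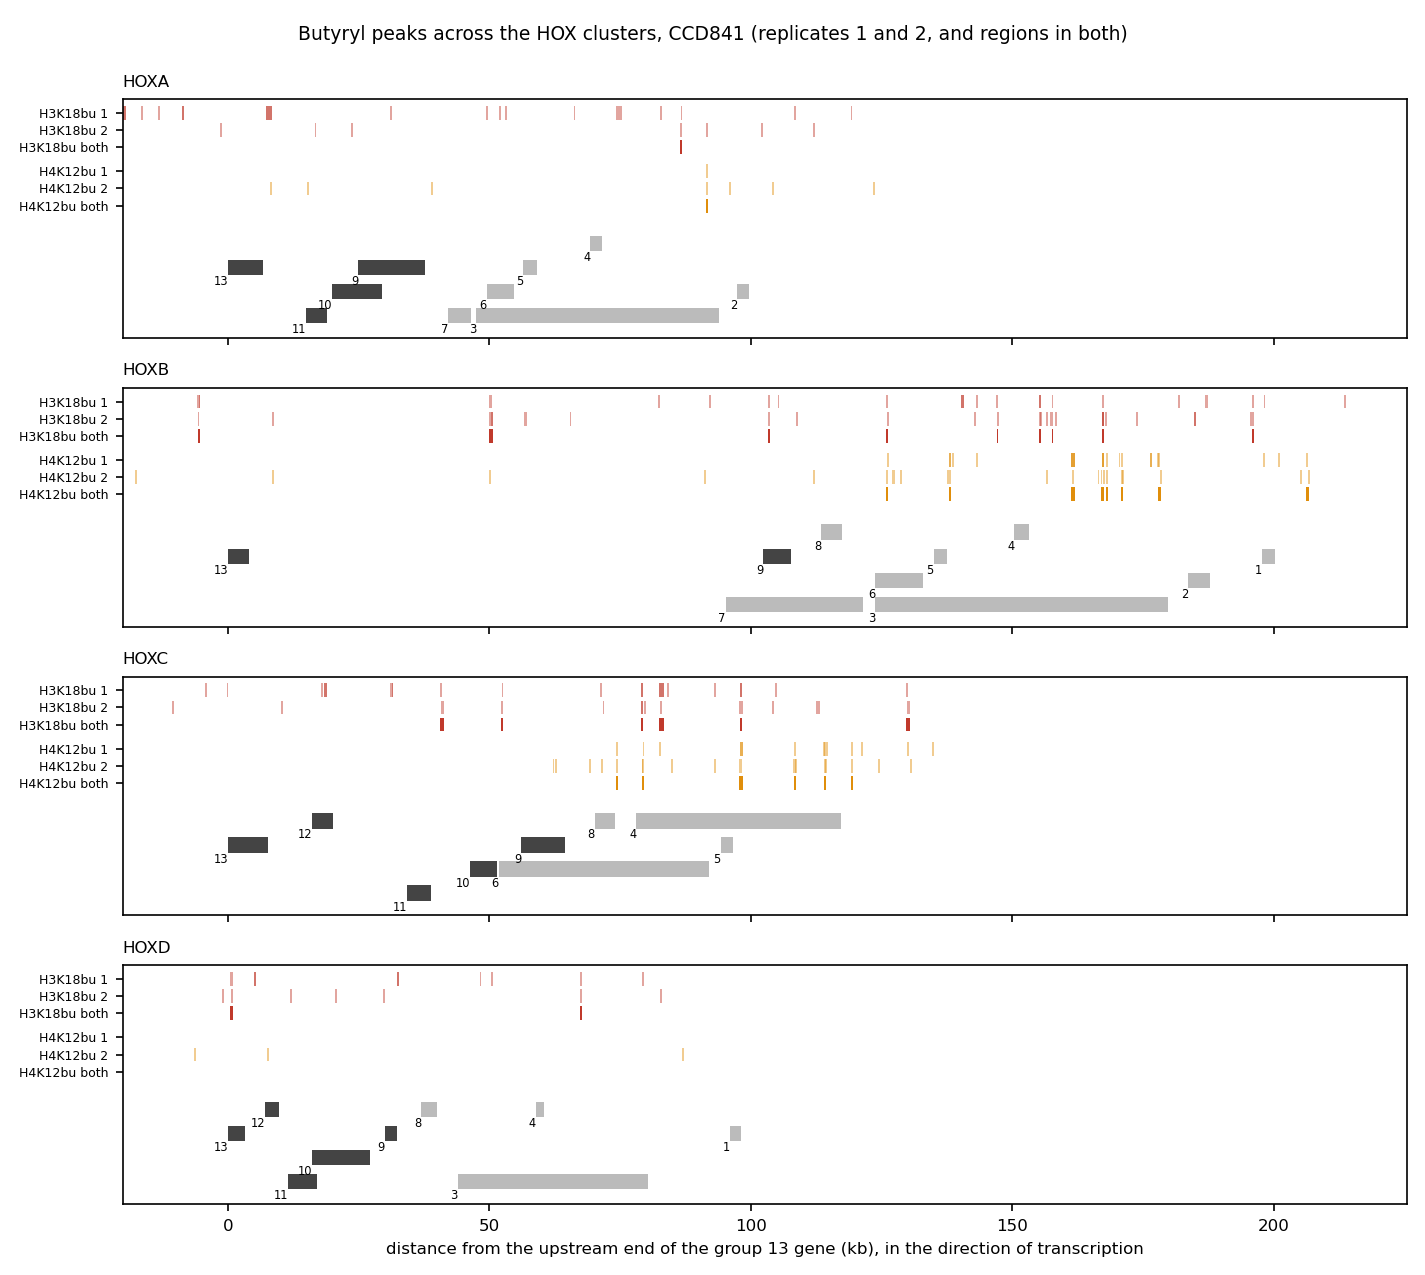
Peaks of each CCD841 library (pale, replicates 1 and 2) and regions of both replicates (full colour) along the 4 HOX clusters, with H3K18bu in red and H4K12bu in orange, each drawn at least 0.35 kb wide. The x axis is distance in kb from the upstream end of the group 13 gene in the direction of transcription, and the grey bars are HOX genes numbered by group, dark for groups 9 to 13 and light for 1 to 8. The full-colour bars of HOXB and HOXC crowd toward the anterior genes to the right, and the HOXD row of H4K12bu holds none.

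Many of these regions fell in long anterior genes. HOXB3 (56.0 kb, chromosome 17, 48548870 to 48604912, minus strand) held 5 of the 18 H3K18bu regions and 7 of the 15 H4K12bu regions, and HOXC4 (39.1 kb, chromosome 12, 54016931 to 54056030, plus strand) held 3 and 4. The other HOX genes over 30 kb held fewer or as many, with 3 and 2 in HOXC6 (40.2 kb, overlapping HOXC4), 1 and 1 in HOXA3 (46.4 kb) and 1 and 0 in HOXD3 (36.5 kb). The order by number of regions was not that by length. In the annotation 12 H3K18bu and 11 H4K12bu regions were in HOX introns, while 1 H3K18bu region touched an exon of HOXD13 and 2 H4K12bu regions touched exons of HOXA3 and HOXB3. The median distance from a region to the nearest HOX gene start was 4558.5 bp for H3K18bu and 8514 bp for H4K12bu. Of the regions, 4 H3K18bu and 0 H4K12bu were within 1 kb of such a start, other transcript starts not counted.

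The strongest H4K12bu region of the clusters was in a HOXB3 intron (chromosome 17, 48590477 to 48590895), with −log10 p values of 14.4 and 5.40 and pileups of 27 and 9. No H3K18bu peak overlapped it. Replicate 1 had the higher −log10 p in 15 of 15 H4K12bu regions, and all of the regions stood in both lists by the rule that defines them. The lowest −log10 p was 4.81 in the list of replicate 1 and 2.97 in that of replicate 2. This direction therefore cannot be read as a difference in strength at these regions.

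Regions of both marks overlapped at 4 places, 22.2% of the H3K18bu and 26.7% of the H4K12bu regions, and all 4 CCD841 libraries had a peak there. The shared sequence is shown on the plus strand of GRCh38 with CG in capitals, whole where it is at most 300 bases and otherwise its central 300 bases. The HOXB stretches were printed from chr17:48561253-48561552, in an intron of HOXB3, and chr17:48602667-48602836, in introns of HOXB3 and HOXB6. The HOXC stretches were from chr12:54018097-54018221, in introns of HOXC4 and HOXC6, and chr12:54036881-54037180, in an intron of HOXC4.
HOXB3 intron: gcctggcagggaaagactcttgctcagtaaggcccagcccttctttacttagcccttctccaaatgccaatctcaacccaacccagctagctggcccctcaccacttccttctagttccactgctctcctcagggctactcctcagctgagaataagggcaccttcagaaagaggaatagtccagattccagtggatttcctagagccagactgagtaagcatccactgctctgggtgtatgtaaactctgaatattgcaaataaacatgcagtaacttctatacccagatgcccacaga
HOXB3 and HOXB6 introns: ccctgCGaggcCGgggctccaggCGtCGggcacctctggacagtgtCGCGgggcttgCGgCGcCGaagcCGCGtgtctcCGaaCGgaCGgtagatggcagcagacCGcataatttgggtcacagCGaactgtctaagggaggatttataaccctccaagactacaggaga
HOXC4 and HOXC6 introns: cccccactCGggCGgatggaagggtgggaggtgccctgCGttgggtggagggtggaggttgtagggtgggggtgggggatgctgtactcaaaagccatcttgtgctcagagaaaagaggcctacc
HOXC4 intron: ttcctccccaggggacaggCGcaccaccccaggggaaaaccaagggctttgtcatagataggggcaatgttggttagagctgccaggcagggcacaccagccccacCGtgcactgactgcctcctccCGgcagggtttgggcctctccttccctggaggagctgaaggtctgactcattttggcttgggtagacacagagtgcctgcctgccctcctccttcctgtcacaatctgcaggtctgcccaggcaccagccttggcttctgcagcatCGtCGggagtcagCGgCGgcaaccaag

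The 4 stretches ranged from no CG (the HOXB3 intron) to 16 in 170 bases (the HOXB3 and HOXB6 introns). At the HOXB3 intron H3K18bu reached pileups of 18 and 19 and H4K12bu 26 and 10, and at the HOXC4 intron H3K18bu reached 18 and 17 and H4K12bu 25 and 8. At both places H4K12bu had the higher pileup in replicate 1 and H3K18bu in replicate 2. At the stretch 1166 bp inside HOXC4 the pileups of H3K18bu, 23 and 20, were above those of H4K12bu, 9 and 6, in both replicates. Across all cluster regions the median CG content was 43.6 per kb for H3K18bu (1 of 18 had no CG) and 15.5 per kb for H4K12bu (3 of 15 had none), beside 22.8 to 31.7 per kb over the whole clusters. None of the regions held the CTCF string searched, and 3 H3K18bu and 1 H4K12bu regions held TTTATNG. The CTCF string was too rare in promoters for its absence here to show a lack of CTCF sites.

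In the mouse, several lists stood apart in a way that touched the clusters unequally. The Kac lists hold close to 300000 peaks each and end within peaks that share 1 lowest p, and the tied peaks are not spread evenly over the chromosomes. They made up 72.1% and 52.0% of the H3K18ac lists (replicates 1 and 2) and 52.8% and 12.8% of the H4K12ac lists. In H3K18ac replicate 2 and H4K12ac replicate 1 they were kept on 6 and 5 of 21 chromosomes only, chromosome 11 (Hoxb) among them and chromosomes 6, 15 and 2 (Hoxa, Hoxc and Hoxd) not. Chromosome 11 carried 28.7 and 28.9 merged peaks per 100 kb in these lists while the other 3 carried 5.43 to 6.06. Without the tied peaks chromosome 11 carried 7.12 and 6.26 listed peaks per 100 kb, so the Kac counts of genes, regions and ranks below are also given without them. In the Kbu lists, tied peaks were at most 0.436% of a list.

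At the gene ends, few mouse Hox genes were called. For H3K18bu 1 of 39 was called (Hoxb4) against 6.84% of all protein-coding genes, and for H4K12bu 2 (Hoxa3 and Hoxb4) against 16.4%. For H3K18ac 5 were called (Hoxa9, Hoxb2, Hoxb7 and Hoxd8 among them) against 24.4%, and for H4K12ac 4 (Hoxa4, Hoxb2, Hoxb7 and Hoxb13) against 27.8%. Without the tied peaks 3 remained for H3K18ac (Hoxa9 and Hoxb7 among them) against 18.2% and 2 for H4K12ac (Hoxa4 and Hoxb7) against 26.4%. Taken by library the Hox share was 23.1% against 26.8% and 17.9% against 23.6% for H3K18bu, 17.9% against 31.8% and 46.2% against 45.7% for H4K12bu, 56.4% against 57.4% and 48.7% against 52.8% for H3K18ac, and 38.5% against 53.1% and 43.6% against 62.7% for H4K12ac. A peak was present in each replicate at 2, 6, 14 and 8 Hox genes for the 4 marks in this order, against 12.1%, 24.4%, 38.9% and 42% of all genes, since a peak in each list need not overlap the other. With tied peaks removed the single H3K18ac libraries had 12 and 18 Hox genes with a peak against 35.4% and 45.6% of all genes, and the H4K12ac libraries 12 and 17 against 47.8% and 62%.

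Other rules for a call were also counted in the mouse. With a peak of either replicate, 14 Hox genes were called for H3K18bu against 38.2% of all genes, 19 for H4K12bu against 53.1%, 27 for H3K18ac against 71.4% and 24 for H4K12ac against 73.7%. Out of 39 genes, the H3K18bu and H3K18ac counts were less than 1 gene short of the share of all genes, and the gap was largest for H4K12ac. With a window of 3 kb, H3K18bu had 1 Hox gene against 9.72% of all genes, H4K12bu 3 against 20.9%, H3K18ac 10 against 35.3% and H4K12ac 6 against 37.8%. When tied peaks were removed, H3K18ac had 21 Hox genes with a peak in either replicate against 54.6% of all genes and 5 within 3 kb against 25.9%, and H4K12ac had 23 against 70.7% and 4 against 35.5%.

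No Hox gene passed a q of 0.05 in both replicates of any mark, and few genes of any kind did. Among all genes 0.0823% passed for H3K18bu, 0.964% for H4K12bu, 4.3% for H3K18ac and 7.38% for H4K12ac. At the starts of the 22 Hox genes in the promoter table, H3K18bu had 1 against 7.02% of all genes in that table, H4K12bu 2 against 16.7%, H3K18ac 1 against 23.8% and H4K12ac 0 against 27.6%. Anywhere in the gene or within 1 kb of it, H3K18bu had 2 Hox genes against 15.3% of all genes, H4K12bu 3 against 25.7%, H3K18ac 8 against 45.5% and H4K12ac 8 against 49.1%. Both acetyl marks, once tied peaks were removed, had 0 Hox genes at the promoter-table starts, against 17.9% and 26.5% of the genes in that table, and 4 and 5 anywhere in the gene, against 34.3% and 46.5%. With 22 or 39 genes, the counts at a q of 0.05 are too near the background to be read as lower. So are those of Kbu at the promoter-table starts. The Kac counts anywhere in the gene, 8 of 39 each, were below the background. A longer gene has more room for a region and lengths were not matched, so these Kac counts are a description.

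Hoxb4, an anterior gene also active in blood stem cells, had a peak in all 8 libraries. Its pileups were 2 in each of the 4 Kac libraries and in H3K18bu replicate 1, and 1 in the other 3 Kbu libraries. The H3K18bu region (chromosome 11, 96317923 to 96318293) lay over the printed promoter and the H4K12bu region (96319148 to 96319462) within the gene. Its Kac peaks did not overlap between replicates, so it was called for Kbu alone, at fragment numbers that do not allow an order of the marks.

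**Figure D3:**
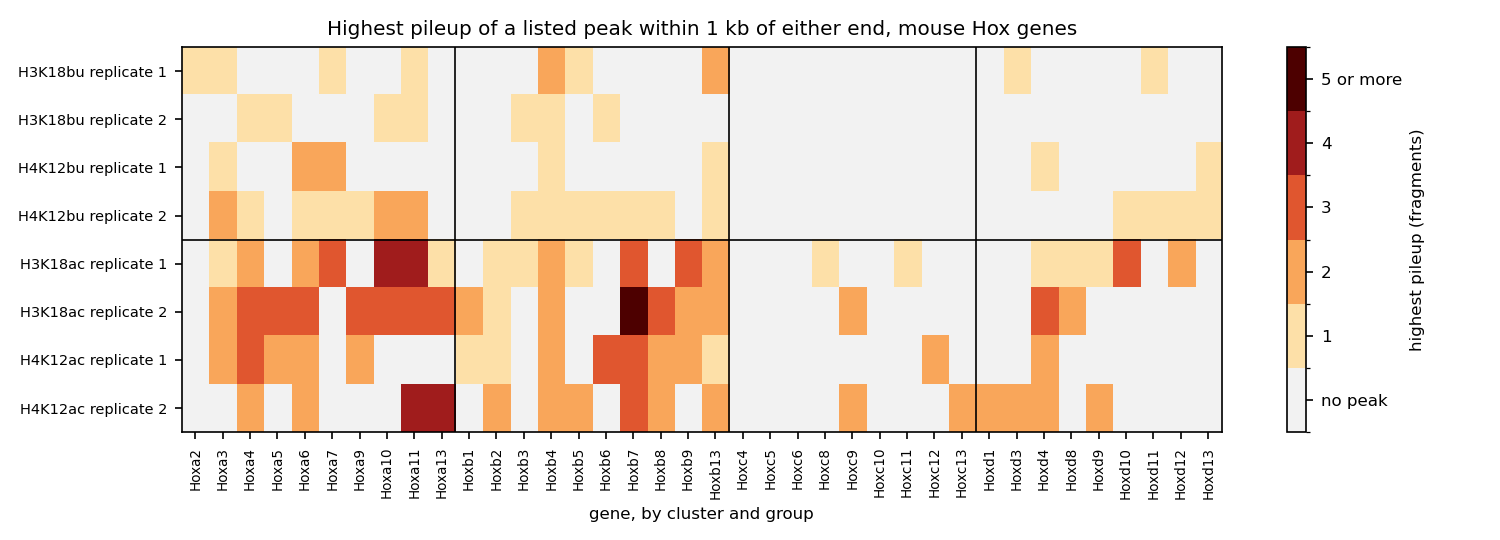
Highest pileup, in fragments, of a listed peak within 1 kb of either end of mouse Hox genes (columns, by cluster and group) in each library (rows, with Kbu above and Kac below the line). The Kbu rows hold pileups of 1 and 2 only, Hoxb4 is filled in all 8 rows, and the Hoxc columns are empty in all 4 Kbu rows.

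Hoxb7 was called for both acetyl marks, with and without tied peaks. H3K18ac reached pileups of 3 and 5 there and H4K12ac 3 and 3, against 1 in H4K12bu replicate 2 and no peak in the other 3 Kbu libraries. Hoxb2, a hindbrain patterning gene, had no Kbu peak and Kac pileups of 1, 1, 1 and 2, so its calls rested on tied peaks. Hoxa4, an anterior gene of the A cluster, had H4K12ac pileups of 3 and 2 (−log10 p 5.26 and 3.32). At Hoxa9 and Hoxd8 the H3K18ac calls rested on 1 weaker peak each, since the Hoxa9 window held a peak of replicate 2 only (pileup 3), reached by the merged region, and the Hoxd8 peaks had pileups of 1 and 2. Hoxa3 was called for H4K12bu on a region with a pileup of 1 in each replicate.

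The group 13 genes, the most posterior, differed from cluster to cluster. Hoxb13, expressed in the adult hindgut, had a peak in 7 of 8 libraries, or 6 without the tied peaks, where the median Hox gene had 3. It was called for H4K12ac with pileups of 1 and 2, a call that was lost without the tied peaks. In the other marks it had pileups of 2 in H3K18bu replicate 1 with no peak in replicate 2, 1 and 1 for H4K12bu and 2 and 2 for H3K18ac, at places that did not overlap. Hoxa13 had no Kbu peak, H3K18ac pileups of 1 and 3 and 1 H4K12ac peak (replicate 2, pileup 4). Hoxd13 had only H4K12bu peaks (pileup 1 in each replicate) and Hoxc13 had only 1 H4K12ac peak (replicate 2, pileup 2).

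Butyryl peaks over the mouse clusters mostly had a pileup of 1, as did those of the whole lists. Of the peaks in the clusters with 20 kb on each side, 90% and 100% had a pileup of 1 for H3K18bu (40 and 31 peaks) and 91.7% and 90.8% for H4K12bu (24 and 65 peaks). Over the whole lists these shares were 89.9% and 90.6% in the H3K18bu libraries and 91.4% and 89.2% in the H4K12bu libraries, so the clusters did not stand apart by this measure. None of them passed a q of 0.05, against 10 and 8 for H3K18ac and 4 and 13 for H4K12ac. Counted as regions of both replicates, H3K18bu had 2 in the clusters, both in Hoxb, and H4K12bu had 4, of which 2 were in Hoxa and 2 in Hoxb. H3K18ac had 20, of which 6 were in Hoxa, 12 in Hoxb and 2 in Hoxd, and H4K12ac had 11, of which 5 were in Hoxa and 6 in Hoxb.

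Without the tied peaks H3K18ac had 11 regions, 5 in Hoxa, 6 in Hoxb and 0 in Hoxd, and H4K12ac had 8, 5 in Hoxa and 3 in Hoxb. Their density in the clusters was then 1.69 per 100 kb against 0.941 over all chromosomes for H3K18ac and 1.23 against 1.13 for H4K12ac, where with the tied peaks it was 3.07 against 1.61 and 1.69 against 1.55. For the butyryl marks it was 0.307 against 0.306 for H3K18bu and 0.613 against 0.364 for H4K12bu. The H3K18bu value rests on 2 regions. By covered length the mouse clusters stood at 0.109% for H3K18bu (all chromosomes 0.0930%), 0.159% for H4K12bu (0.118%), 1.04% for H3K18ac (0.578%) and 0.487% for H4K12ac (0.568%). The acetyl values without tied peaks were 0.506% (0.386%) and 0.333% (0.444%), so H4K12ac was close to all chromosomes by number of regions and below them by length.

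**Figure D4:**
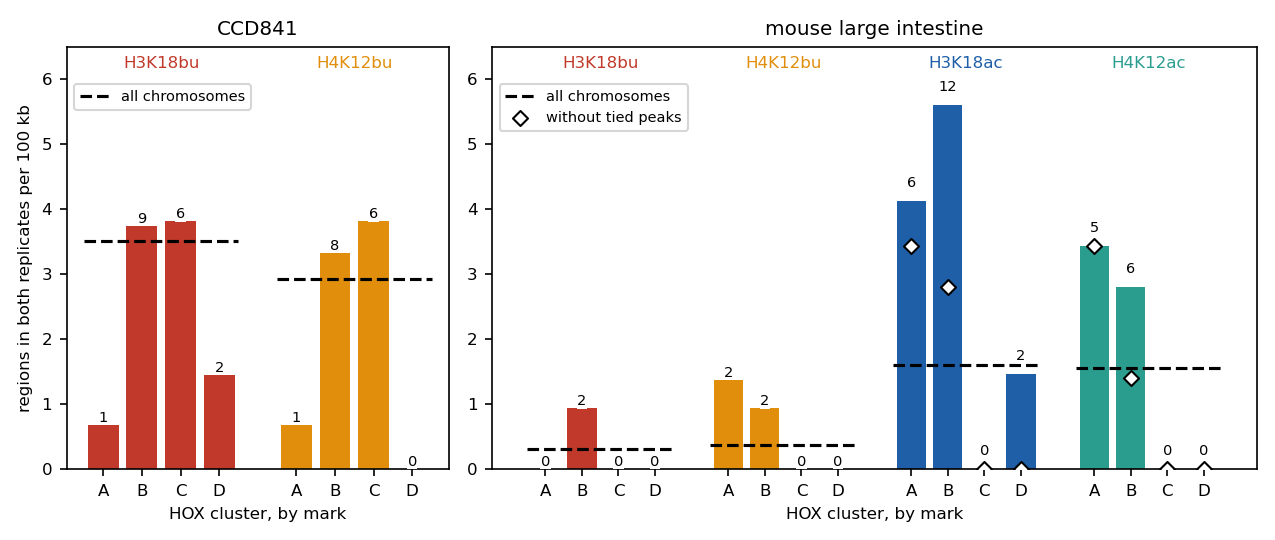
Regions of both replicates per 100 kb in each HOX cluster with 20 kb on each side (bars, with the number of regions above), by mark, in CCD841 (left) and mouse large intestine (right). Dashed lines give the density over all chromosomes, and open diamonds give the Kac densities without peaks tied at the lowest p. The C bars reach 3.82 per 100 kb for both CCD841 marks and are at 0 for all 4 mouse marks, and the Hoxb bar of H3K18ac falls from 12 regions to 6 without the tied peaks.

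The Hoxc cluster lacked butyryl peaks between its first and last gene, and with 20 kb on each side it held 1, in H4K12bu replicate 2. From the first to the last gene (115.7 kb, chromosome 15, 102921131 to 103036856) none of the 4 Kbu libraries had a peak, while over all of chromosome 15 the H3K18bu libraries carried 2.43 and 2.12 merged peaks per 100 kb and the H4K12bu libraries 1.94 and 3.82. In the same libraries Hoxa and Hoxb carried between 5.17 and 18.4 per 100 kb and Hoxd between 4.13 and 7.22, above the densities of their own chromosomes. The Kac libraries had 12 and 4 merged peaks in Hoxc for H3K18ac and 1 and 6 for H4K12ac, and no region was in both replicates of a mark. The 12 of H3K18ac replicate 1, at 10.4 per 100 kb near the 11.8 of chromosome 15, were all tied at the lowest p, and the other 3 libraries had 3.46, 0.864 and 5.18 per 100 kb against 5.60, 5.43 and 9.91. Hoxc4, Hoxc5, Hoxc6 and Hoxc10 had no peak at a gene end in any of the 8 libraries, the other 5 Hoxc genes had 1 or 2 libraries each, and every mouse Hox gene outside Hoxc had at least 1. The share of all mouse genes with no peak in any library is not given here, so these counts are a description.

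**Figure D5:**
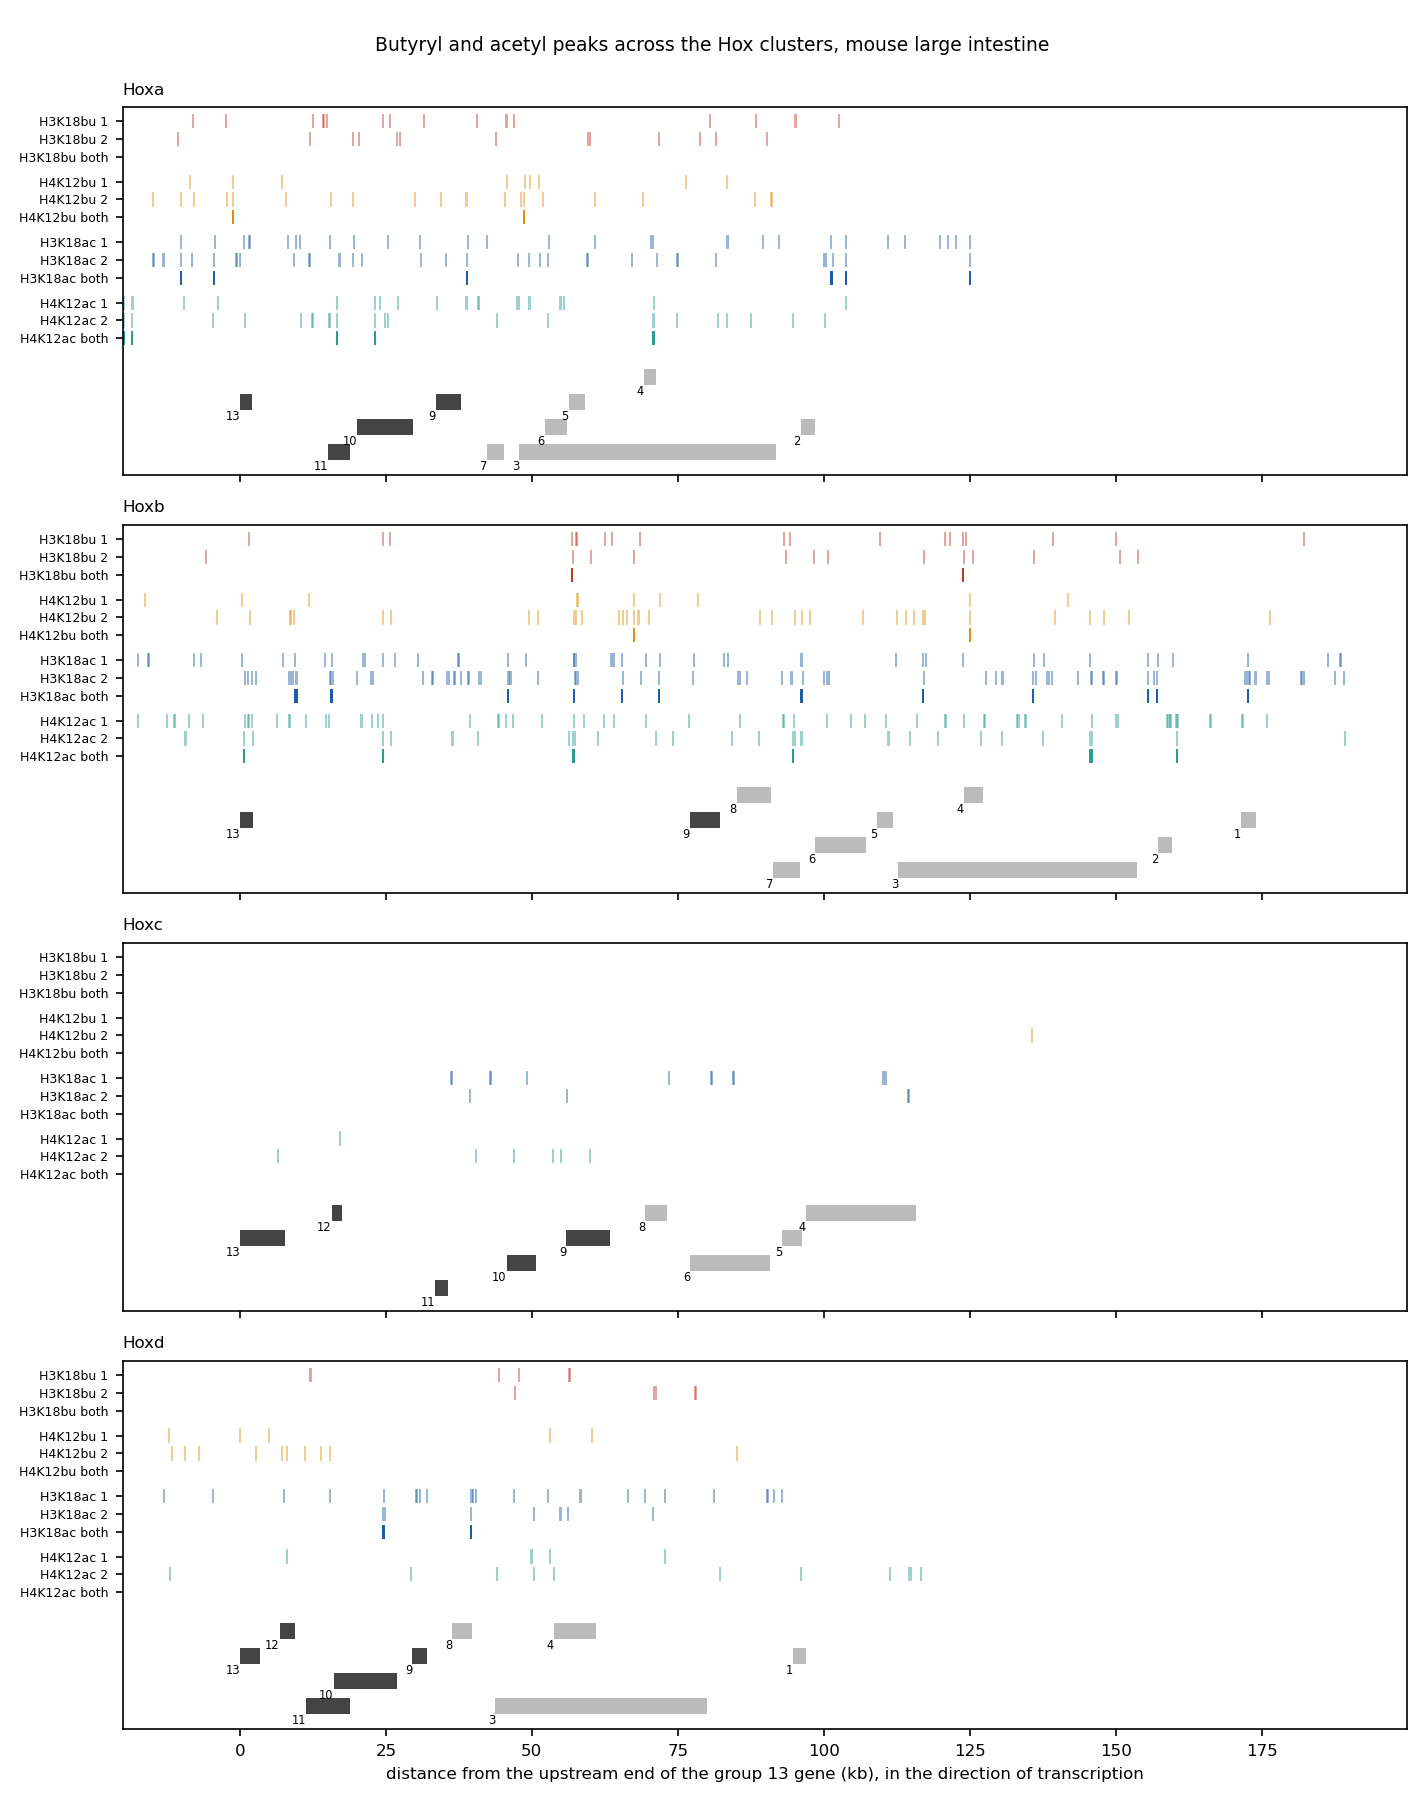
Peaks of each mouse library (pale, replicates 1 and 2) and regions of both replicates (full colour) along the 4 Hox clusters, by mark, each drawn at least 0.35 kb wide, with tied peaks included. The x axis is distance in kb from the upstream end of the group 13 gene in the direction of transcription, and grey bars are Hox genes numbered by group. The Hoxc panel holds no Kbu peak between its first and last gene, and the Hoxb rows of H3K18ac replicate 2 and H4K12ac replicate 1 are the most crowded.

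The strongest stretch in the mouse clusters was not at a Hox gene. It lay between Hoxb13 and Hoxb9 on chromosome 11, within 1 kb of an end of Gm53, a long non-coding RNA gene, 19730 bp from Hoxb9 for H3K18ac and 19644 bp for H4K12ac. The H3K18ac region (96251366 to 96251600) had −log10 p values of 12.4 and 3.54 and pileups of 10 and 3, and the H4K12ac region (96251196 to 96251686) had 6.53 and 6.05 and pileups of 4 and 5. The latter was the only cluster region of any mouse mark that passed a q of 0.05 in both replicates. An H3K18bu region (96250949 to 96251289, pileup 1 in each replicate) overlapped its edge, and the H4K12ac region reached into Gm53. Its calls did not rest on tied peaks.

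Kbu and Kac libraries were compared by the percentile rank of each gene's highest −log10 p among all protein-coding genes of its library, genes without a peak ranking lowest. The Kbu lists hold 50675 to 96432 peaks and the Kac lists 299623 to 299861, so more genes have a Kac peak and a Kac rank above 0. Hoxb2 and Hoxb7 had all 4 Kac ranks above all 4 Kbu ranks, 2 of 39 genes beside 3.31% of all genes, and 0 of 39 had the reverse beside 0.548%. The ranks of Hoxb7 were 70.3 to 87.6 for Kac and 0, 0, 0 and 56.3 for Kbu. Hoxb4 had the opposite order of means, at 81.3 for Kbu and 63.7 for Kac, but its groups overlapped. The median difference in mean rank, Kac minus Kbu, was 10.6 points over the Hox genes and 11.9 over all genes. With the 50675 strongest peaks of every list, 0 Hox genes had Kac ranks all above Kbu ranks beside 0.928% of all genes, and 0 had the reverse beside 0.434%, so the order at Hoxb2 and Hoxb7 was not seen in lists of equal length. Without the tied peaks, Hoxb7 alone kept its order, beside 2.43% of all genes in either direction, and since the 4 libraries of a diet came from at most 2 mice the ranks are given with no p.

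Posterior and anterior genes were compared next, and neither group was called at more than a small share. In CCD841 2 of 16 posterior and 2 of 23 anterior genes were called for H3K18bu (12.5% and 8.70%) and 0 of either for H4K12bu. In the mouse the posterior share was lower for every mark, at 0% against 4.35% for H3K18bu, 0% against 8.70% for H4K12bu, 6.25% against 17.4% for H3K18ac, and 1 of 16 against 3 of 23 genes for H4K12ac. The acetyl counts without tied peaks were 1 of 16 against 2 of 23 for H3K18ac and 0 of 16 against 2 of 23 for H4K12ac. Each of these shares rests on at most 4 called genes. Taken by library, the mouse difference for H4K12bu was −9.24 points in replicate 1 and 6.52 points in replicate 2, so its direction was not shared by the replicates. The sign of the difference, posterior minus anterior, also turned with a window of 3 kb for CCD841 H3K18bu (−9.24 points) and mouse H4K12ac (5.71 points), and with a peak of either replicate for mouse H4K12bu (2.17 points).

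No HOX gene was called for the same butyryl mark in both systems at the start or gene ends. Of the H3K18bu genes, 4 were called in CCD841 and 1 in mouse with 0 shared, and of the H4K12bu genes 0 and 2, so that at most 1 and 0 genes could have been shared. With a peak in either replicate, HOXD11 was shared for H3K18bu (11.1% of 9 CCD841 genes and 7.14% of 14 mouse genes) and HOXA11 and HOXD12 for H4K12bu (33.3% of 6 and 10.5% of 19). Anywhere in the gene, HOXB3 was called in both systems for both marks and HOXA3 for H4K12bu. The lists differ in their lowest pileup, window and tissue, and no share of all genes called in both systems is given here, so the overlap is a description.

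The clusters also hold non-coding genes. In the mouse these include the microRNA genes of the miR-10 and miR-196 families, which repress Hox messages. Their mature sequences from RefSeq (GRCm38.p6) are shown 5′ to 3′ with the seed, bases 2 to 8, in capitals, because the 5 genes fall into only 2 seeds, ACCCUGU for miR-10 and AGGUAGU for miR-196.
miR-10a-5p: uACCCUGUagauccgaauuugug
miR-10b-5p: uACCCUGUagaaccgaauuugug
miR-196a-5p: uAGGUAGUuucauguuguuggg
miR-196b-5p: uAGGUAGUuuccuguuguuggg

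Mir10a (chromosome 11, mature form at 96317186 to 96317208) shared the H3K18bu region of Hoxb4, with pileups of 2 and 1, and was the 1 of 6 mouse microRNA genes in the clusters called for a butyryl mark, where 2.12% of all mouse microRNA genes were called for H3K18bu and 4.15% for H4K12bu. Mir196a-1 was called for H3K18ac, with pileups of 4 and 4, and had a pileup of 1 in each H4K12bu replicate at places that did not overlap. It was the 1 microRNA gene of the clusters called for H3K18ac, with or without tied peaks (6.76% and 4.15% of all microRNA genes), and 0 were called for H4K12ac (7.82% and 7.17%).

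Of 24 mouse long non-coding RNA genes in the clusters, 1 was called for H3K18bu against 4.56% of all mouse long non-coding genes, 0 for H4K12bu against 6.38%, 6 for H3K18ac against 15.8% and 3 for H4K12ac against 14.2%. With tied peaks removed there were 4 for H3K18ac against 11.5% and 3 for H4K12ac against 12.4%. In CCD841, 1 of 8 microRNA genes (MIR196A2) was called for H3K18bu against 13% of all human microRNA genes, and 0 for H4K12bu against 17.2%. Of 26 long non-coding genes, 2 were called for H3K18bu against 19.7% of all human ones and 4 for H4K12bu against 11.3%, among them the antisense genes HOXA-AS2, HOXB-AS2 and HOXB-AS3. These counts are too small to set the non-coding genes of the clusters apart from others. CUT&Tag peaks carry no strand, so signal at an antisense start and at the HOX gene across from it cannot be told apart.

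PKNOX1, a HOX cofactor, had stronger start peaks in CCD841 than any HOX gene. Of 9 HOX cofactors, the PBX, MEIS and PKNOX proteins that bind DNA beside HOX proteins, 3 were called for H3K18bu and 2 for H4K12bu. The PKNOX1 peaks had H3K18bu −log10 p values of 40.6 and 35.2 (pileups 45 and 40) and H4K12bu values of 28.4 and 8.69 (pileups 35 and 10). Of 13 chromatin regulators of HOX genes, 5 were called for H3K18bu and 2 for H4K12bu. CTCF, the insulator protein, had H3K18bu −log10 p values of 17.2 and 11.8, above HOXC4 in replicate 1 and below it in replicate 2, and KMT2A, the methyltransferase that keeps HOX genes active, had 14.4 and 9.96 for H3K18bu and 6.13 and 7.45 for H4K12bu. These shares, 33.3% and 38.5% for H3K18bu and 22.2% and 15.4% for H4K12bu, were near or above those of all genes (31.3% and 14.7%).

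Of 8 ParaHox genes and cluster neighbours, 0 were called in CCD841 for either mark, while in the mouse Cdx1 and Cdx2, the intestinal regulators related to HOX genes, were called for H3K18bu and H3K18ac. Cdx2 had H3K18bu pileups of 2 and 3 and H3K18ac pileups of 5 and 6, and Cdx1 had 4 and 2 and 9 and 13. The highest H3K18bu pileups at any Hox gene end in the same libraries were 2 and 1, too few fragments to rank these genes. Of the mouse cofactors 0 were called for H3K18bu, 1 for H4K12bu (Pknox1, pileups 1 and 1), 2 for H3K18ac and 0 for H4K12ac, with or without tied peaks. Of the mouse regulators 0, 3, 5 and 2 were called in the same order (3 and 2 for the acetyl marks without tied peaks), with Ezh2, the Polycomb methyltransferase, having pileups of 2 and 1 for H4K12bu and 3 and 3 for H3K18ac. All mouse genes were called at 6.84%, 16.4%, 24.4% and 27.8% in this order, and lists of 8 to 13 genes are too short to be set apart from these shares.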

How the data were processed

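CUT&Tag libraries of CCD841 cells and mouse large intestine, 2 per mark, were analysed from the deposited peak lists. Per the submitters' processing notes the authors used bcl2fastq 2.17.1, cutadapt 1.9.1, Bowtie2 2.3.1 and MACS2 2.1.0 with builds hg38 and mm10, and called peaks in each library at a p of 0.01, keeping at most 300000. The deposited lists give, per peak, the fold enrichment over background (a ratio), the −log10 p-value and the −log10 q-value, and no read counts. From fold = (pileup + 1)/(background + 1) and the Poisson p, the pileup was solved to within 0.01 in −log10 p, which was tested on simulated data.

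Overlapping peaks (at least 1 bp) were merged, and a stretch with a peak of each replicate was a region. Human starts were those of GENCODE 44 genes on GRCh38, and mouse genes and promoters were from RefSeq GRCm38.p6, the assembly mm10 names. Clusters ran from the first to the last HOX gene plus 20 kb on each side. Values were computed with scipy 1.17.1, pandas 2.3.3 and numpy 2.4.6 under Python 3.11.15.

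The members and gene lists were chosen with earlier results of these data known. All HOX genes were counted, and 1 of them is not reported here by name. Values were given for the 3 strongest called genes per mark by the lower −log10 p of the replicates, for called butyryl genes, for group 13 genes and for the 2 strongest genes per list. Other genes and regions were named after their values were seen. Samples were grouped by title. No comparison was tested. Alternatives were q below 0.05, a 3 kb window, either replicate, single replicates, equal numbers of strongest peaks, other starts, higher pileups, removal of tied peaks, other group limits, no margin and a replicate block.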

Additional observations from a re-analysis of the deposited data

How the results depend on the processing

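The counts follow from what is called a peak, so the size of each count moved with the settings while in CCD841 the HOX share stayed below that of all genes under each setting for which all genes were counted. With a single library in place of both (without replicate 1 or without replicate 2, the lower value first in each pair), the CCD841 start counts were 6 and 7 (H3K18bu) and 1 and 5 (H4K12bu). The mouse gene-end counts, by mark in the order H3K18bu, H4K12bu, H3K18ac and H4K12ac, ran from 7 to 9, 7 to 18, 19 to 22 and 15 to 17. The covered percent of the clusters was then 1.54 and 2.32 (H3K18bu) and 1.05 and 1.12 (H4K12bu) in CCD841, and 0.829 and 1.17 (H3K18bu), 0.693 and 1.94 (H4K12bu), 2.89 and 3.24 (H3K18ac) and 1.99 and 2.51 (H4K12ac) in the mouse. The difference posterior minus anterior, in percentage points, was 1.36 and 16.3 (H3K18bu) and −4.35 and −0.543 (H4K12bu) in CCD841, and −9.24 and −7.34 (H3K18bu), −9.24 and 6.52 (H4K12bu), −8.42 and −0.272 (H3K18ac) and −22.8 and −10.3 (H4K12ac) in the mouse. The mouse Hox genes whose ranks did not overlap were 7 and 11 with 1 replicate per mark, against 22.1% of all genes each time.

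A peak in either replicate gave 9 and 6 CCD841 genes (H3K18bu and H4K12bu), and 14, 19, 27 and 24 mouse genes (H3K18bu, H4K12bu, H3K18ac and H4K12ac), with 1 and 2 genes shared by the systems for H3K18bu and H4K12bu. The posterior minus anterior difference was then −4.89 points for H4K12bu in CCD841 and −18.5, 2.17 and −0.815 points for H3K18bu, H4K12bu and H3K18ac in the mouse, the H4K12bu one turning in sign. A window of 3 kb gave 7 and 4 CCD841 genes and 10 mouse H3K18ac genes, with differences of −9.24 (H3K18bu, sign turned) and −17.4 points (H4K12bu) in CCD841 and −22.3 (H3K18ac) and 5.71 points (H4K12ac, sign turned) in the mouse. The start of any transcript gave 7 and 2 CCD841 genes.

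With q below 0.05, no mouse Hox gene was called for any mark (0 for H3K18bu, H4K12bu, H3K18ac and H4K12ac), so the difference of every mouse mark was 0. The covered percent in the mouse was 0 for H3K18bu, H4K12bu and H3K18ac and 0.0753 for H4K12ac. In CCD841 it was 0.555 for H4K12bu. A pileup of at least 2 left 0 genes for H3K18bu and H4K12bu (0.978% and 4.15% of all genes), 3 for H3K18ac (18.2%) and 2 for H4K12ac (26.4%). The 50675 strongest peaks of every mouse list left 1 gene each for H4K12bu, H3K18ac and H4K12ac (10.2%, 8.63% and 10.3% of all genes), and 0 genes in the rank comparison. The difference was then −4.35 points for each of these marks. Their covered percent was 0.0483 for H4K12bu, 0.181 for H3K18ac and 0.119 for H4K12ac. Without the tied Kac peaks there were 3 (H3K18ac) and 2 (H4K12ac) genes, 0.506% covered and a difference of −2.45 points for H3K18ac, and 1 gene in the rank comparison. Groups 10 to 13 against 1 to 4 gave 0 points for CCD841 H3K18bu and H4K12bu, so the higher posterior share of H3K18bu was lost. In the mouse this setting gave −8.33 points for H3K18bu and H4K12ac and −16.7 points for H4K12bu and H3K18ac. No margin around the clusters gave 0.879% for CCD841 H4K12bu.

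The counts anywhere in the gene, the starts of the promoter table and the covered share, posterior minus anterior difference and ranks without tied peaks, and the ranks with equal numbers of peaks, were chosen after seeing the data. Anywhere in the gene, 10 and 7 CCD841 genes and 2, 8 and 8 mouse genes (H3K18bu, H3K18ac and H4K12ac) were called, and the promoter table starts gave 1 for H3K18ac (Hoxd10) and 0 for H4K12ac. The cause of these changes was not tested beyond what each setting removes.

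No comparison was tested, with or without pairing. As a description, with the replicate number as a block (4 differences Kac minus Kbu within residue and number, all of one sign), 3 Hox genes were found where the unblocked ranks gave 2, beside 8.58% of all genes. Same-numbered libraries did not deviate together: the correlations of replicate 1 minus replicate 2 between marks were −0.0294 to 0.0166 across genes.

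The lists give no depth, so a gene without a peak cannot be given an upper limit, and neighbouring HOX genes share regions. Pileups of 1 and 2 in the mouse are too few fragments to rank marks or genes.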

Other observations

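Retinoic acid switches on anterior HOX genes in the embryo, and the genes of its receptors and enzymes were counted the same way. In CCD841, 2 of 12 were called for H3K18bu (16.7%, against 31.3% of all genes) and 0 for H4K12bu (against 14.7%). ALDH1A2, which makes retinoic acid, had H3K18bu −log10 p values of 11.6 and 15.6 with a pileup of 28 in each replicate, and RARB, a receptor, had 9.25 and 7.91. In the mouse 0 were called for H3K18bu and H4K12bu, and 2 each for H3K18ac (Aldh1a2 and Rarg) and H4K12ac (Rarg and Rxrg), with pileups of at most 4. All mouse genes were called at 6.84%, 16.4%, 24.4% and 27.8% for H3K18bu, H4K12bu, H3K18ac and H4K12ac, and without tied peaks the acetyl counts were 2 and 1 (Rarg).

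Markers of other cell types of the gut wall gave further counts. In CCD841, 2 of 8 smooth muscle markers were called for each mark (LMOD1 and ACTA2), 3 and 2 of 6 immune markers, 0 of 6 enteric neuron and glia markers for each mark, and 2 and 1 of 4 endothelial markers for H3K18bu and H4K12bu. With lists this short, none of these counts can be set apart from the 31.3% and 14.7% of all genes. S100A4 was the fibroblast and mesenchymal marker with the strongest H3K18bu peak, at −log10 p 22.8 and 15.3 (pileups 49 and 35), followed by COL6A3 at 17.0 and 12.2. In the mouse, no fibroblast, smooth muscle, immune, neuron or endothelial marker was called for either butyryl mark, a count of 0 in each list. Lists this short cannot be set apart from the butyryl shares of all mouse genes given in the paragraph before. For H3K18ac and H4K12ac the counts were 2 and 1 of 14 fibroblast markers, 2 and 2 of 8 smooth muscle markers, 1 and 1 of 6 immune markers, 1 and 2 of 6 neuron and glia markers, and 1 and 0 of 4 endothelial markers, against 24.4% and 27.8% of all genes. Without tied peaks the fibroblast counts were 1 and 1, those of smooth muscle 1 and 1 and those of endothelium 0 and 0, and the immune, neuron and glia counts were the same numbers. Cdx1 and Cdx2 are in both the epithelial and the ParaHox lists.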
